A study of Mus musculus with 2 samples.

Results

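The genes described here are 10 heat shock chaperone genes, Hspa8, Hspa1a, Hspa1b, Hsph1, Hsp90ab1, Hsp90aa1, Dnaja1, Dnajb1, Hspb1 and Hspd1, in the pancreas of a healthy mouse. They were chosen by symbol: each symbol matched 1 row among the 43346 gene rows of both deposited gene tables, through the identifier without its version. The tissue came from 1 C57BL/6J mouse, an adult female aged 10 weeks, with no treatment or engineered allele named in the labels, and its polyadenylated RNA was made into 2 technical replicate libraries. Both libraries come from 1 biological sample, replicate 2 was prepared later than replicate 1, and no other group exists. Every difference given below is therefore between libraries, replicate 2 over replicate 1, and not between conditions.

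Heat shock proteins bind unfolded or aggregating proteins and help them fold, mature or be degraded. HSP70 proteins cycle on and off their substrates with ATP, driven by J proteins, which start the cycle, and by HSP110 proteins, which exchange the nucleotide. HSP90 proteins act later, on nearly folded clients such as kinases and steroid receptors, small heat shock proteins hold unfolded proteins without ATP, and the transcription factor HSF1 induces the stress-inducible members through heat shock elements, inverted repeats of the letters GAA. The other genes encode cytosolic or nuclear proteins, whereas Hspd1 encodes HSP60, the chaperonin of the mitochondrial matrix, so the word cytosolic does not describe it. Acinar cells, which make up most of the pancreas, fold their secreted enzymes in the endoplasmic reticulum (ER) with separate chaperones, among them Hspa5 and Hsp90b1.

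The expected counts, estimates of reads per gene that need not be whole, summed to 9797569 in replicate 2 and 9441559 in replicate 1. The libraries differed in composition: Gm42418, a noncoding gene that overlaps ribosomal RNA sequence, took 42.8% of counts in replicate 2 and 16.9% in replicate 1, and the mitochondrial genome took 3.17% in replicate 2 and 17.6% in replicate 1. Marker genes fitted the labelled tissue, with 6 of 6 acinar markers (summing to 50601 TPM in replicate 2 and 48504 TPM in replicate 1) and 6 of 6 islet markers (22791 and 21020 TPM) at 1 TPM or more in both libraries. TPM is a level per length, on a scale with the same total in both libraries. None of 4 T and B cell markers and none of 3 hepatocyte markers reached 1 TPM in both, and Cd3g was at 0. Erythroid markers summed to 2151 TPM in replicate 2 and 939 TPM in replicate 1, and fibroblast and stellate markers to 263 and 493 TPM. Duct (36.0 and 47.7 TPM), endothelial (206 and 230), smooth muscle and pericyte (133 and 206), macrophage (96.1 and 102) and adipocyte markers (163.3 and 274) were also present. The part of this mixture in the levels below was not tested, and for a level in bulk tissue fewer cells of a type and less RNA per cell cannot be told apart. Where marker sums differ between the libraries, the difference lies within 1 biological sample.

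Hspa1a and Hspa1b, the inducible HSP70 genes, are neighbouring single-exon copies on the minus strand of chromosome 17 whose starts lie 12918 bases apart. Their upstream sequences and coding sequences are shown because reads from the copies are hard to tell apart. In the 250 bases before the start (RefSeq, GRCm38.p6), chr17:34972157-34972406 for Hspa1a and chr17:34959239-34959488 for Hspa1b, both read 5′ to 3′ on the minus strand, the copies differ at 3 positions, which are in capitals.
Hspa1a: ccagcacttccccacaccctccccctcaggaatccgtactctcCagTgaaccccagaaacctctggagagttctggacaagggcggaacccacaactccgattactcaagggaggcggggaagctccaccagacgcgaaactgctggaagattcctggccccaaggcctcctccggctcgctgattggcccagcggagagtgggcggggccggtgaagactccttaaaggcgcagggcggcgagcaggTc
Hspa1b: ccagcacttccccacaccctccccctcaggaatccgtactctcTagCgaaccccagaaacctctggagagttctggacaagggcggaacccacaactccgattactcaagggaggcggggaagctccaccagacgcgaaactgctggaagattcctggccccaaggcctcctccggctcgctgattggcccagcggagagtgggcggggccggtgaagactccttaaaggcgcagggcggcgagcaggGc

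The coding sequences in GENCODE M21, 1926 bases in Hspa1a and 1929 bases in Hspa1b with the stop codon, align with 8 substitutions and 3 gap positions, an identity of 99.4%. The longest stretch without a difference runs for 638 bases. The 90-base coding window without a gap that holds the most differences, bases 1327 to 1416 from the first coding base, has 2, in capitals below (GRCm38, minus strand, chr17:34970510-34970599 for Hspa1a and chr17:34957592-34957681 for Hspa1b).
Hspa1a: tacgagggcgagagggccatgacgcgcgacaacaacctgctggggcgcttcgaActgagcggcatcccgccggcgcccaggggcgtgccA
Hspa1b: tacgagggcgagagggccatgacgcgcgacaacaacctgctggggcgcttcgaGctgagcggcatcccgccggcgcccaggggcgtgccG
The 5′ untranslated regions, 231 bases in each copy, differ at 3 positions. The 3′ untranslated regions are unlike, 810 bases in Hspa1a and 643 bases in Hspa1b with an identity of 45.7%, so that part of each transcript tells the copies apart.

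Heat shock elements were searched as adjoining inverted units, GAANNTTC or TTCNNGAA, where N is any base. Each of these motifs reads the same on both strands, and the windows were the RefSeq promoters from 250 bases before to 50 bases after each start. Of 27025 genes with a window, 17% held such a pair, and 0.662% held 3 units in a row, GAANNTTCNNGAA or TTCNNGAANNTTC, which contain the pair. Windows existed for 7 of the 10 chaperone genes, not for Hspa8, Hsp90ab1 and Hsp90aa1. A pair stood in at least 1 window of 6 of the 7, in all but Dnajb1, and 3 units in a row stood in Hsph1 and Hspd1. The sites that begin before the start are shown as 30-base stretches of GRCm38.p6 with the matching letters in capitals.
Hspa1a, 104 bases before the start, minus strand, chr17:34972242-34972271: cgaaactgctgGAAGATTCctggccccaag
Hspa1b, 104 bases before the start, minus strand, chr17:34959324-34959353: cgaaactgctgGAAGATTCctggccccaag
Hsph1, 33 or 54 bases before its starts, minus strand, chr5:149636351-149636380: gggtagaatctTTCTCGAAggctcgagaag
Dnaja1, 124 bases before 1 of its 3 starts, plus strand, chr4:40722333-40722362: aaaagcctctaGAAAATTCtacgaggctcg
Hspb1, 117 bases before the start, plus strand, chr5:135887791-135887820: cttcaacaagaGAAGTTTCcagatgggggc
Hspb1, 97 bases before the start, plus strand, chr5:135887811-135887840: agatgggggcaGAACCTTCctggccccgcc
Hspd1, 144 bases before 1 of its 2 starts, minus strand, chr1:55088053-55088082: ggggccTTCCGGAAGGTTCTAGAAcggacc
The Hspa1a and Hspa1b sites are identical over all 30 bases. The Hspd1 site also lies 89 bases before the start of Hspe1, the gene of its lid protein HSP10, which is transcribed the other way from the same stretch. The row of 3 units in Hsph1 begins 36 or 15 bases after its starts. A match describes letters in these windows and is not evidence that HSF1 binds there.

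**Figure D1:**
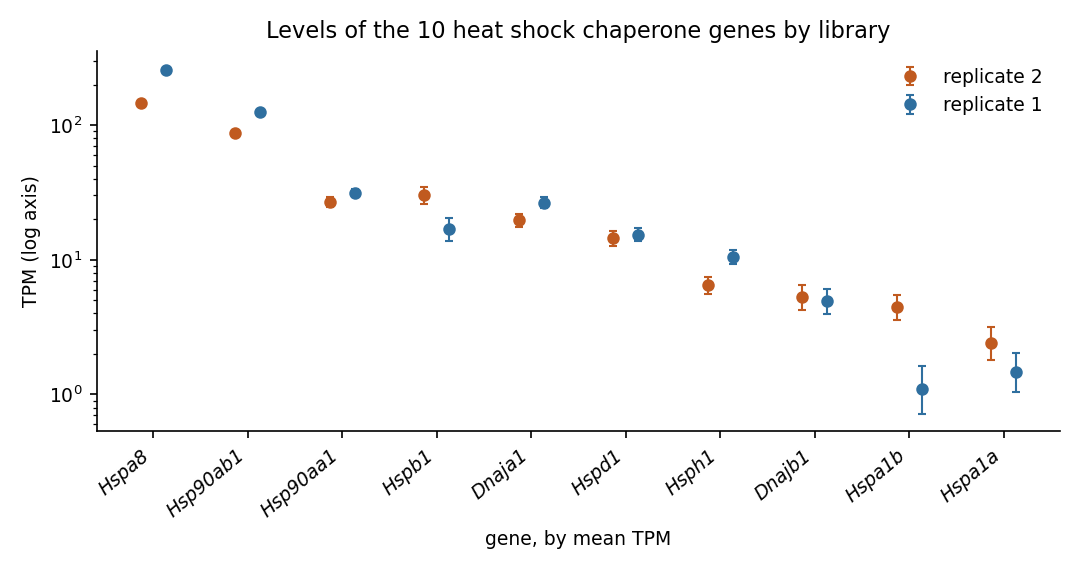
TPM on a log axis for each of the 10 genes, ordered by mean, in replicate 2 (orange) and replicate 1 (blue), with exact Poisson 95% intervals of the counts. Hspa8 and Hsp90ab1 lie above the other 8 genes in both libraries, and Hspa1a and Hspa1b are lowest by mean.

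Hspa8 and the HSP90 genes dominated the group. The 10 genes summed to 344 TPM in replicate 2 and 489 TPM in replicate 1 (417 ± 103, technical SD, n = 2 libraries). Hspa8, Hsp90ab1 and Hsp90aa1 made up 75.9% of that sum in replicate 2 and 84.3% in replicate 1. By mean TPM the order was Hspa8, Hsp90ab1, Hsp90aa1, Hspb1, Dnaja1, Hspd1, Hsph1, Dnajb1, Hspa1b and Hspa1a. Hspa8 and Hsp90ab1 kept their places in both libraries, and so did Hspd1, Hsph1 and Dnajb1 below Dnaja1. The values of Hsp90aa1 and Hspb1, of Hspb1 and Dnaja1, and of Hspa1b and Hspa1a overlapped between libraries, so those neighbours are not separated by the technical spread.

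All 10 genes passed the filter of a mean of at least 10 counts. The libraries were set against each other by an exact binomial test after TMM scaling, and a call needed both a difference of at least 2-fold and an adjusted p below 0.05. Of the 12452 genes tested, 12.3% were called: 8.31% were higher in replicate 2, and 498 genes were lower. Among the 10, Hspa1b and Hspb1 were called higher and none lower. Their median log2 ratio was 0.18, beside -0.01 over all genes tested. A count of 2 among 10 genes is near that background, and the test holds counting error only, since 1 library on each side allows no replicate check. The scaling matters for signs: scaling to library totals shifts every ratio by -0.54, and 3 of the 10 genes, in place of 6, are above 0. That setting calls 23.7% of all genes, with 11.6% of the calls higher, against 67.5% with TMM.

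**Figure D2:**
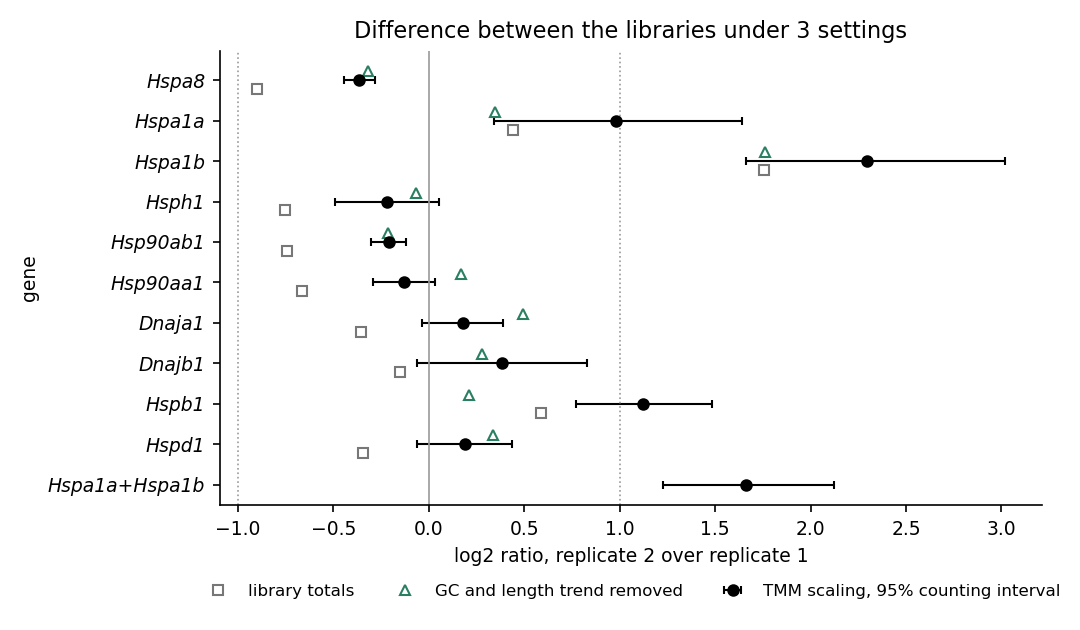
Log2 ratio of replicate 2 over replicate 1 for the 10 genes and for the summed Hspa1a and Hspa1b counts. Filled circles with exact 95% intervals are TMM-scaled, open squares use library totals and open triangles have the GC and length trend removed, both drawn for single genes alone, and dotted lines mark a 2-fold difference. Hspa1b stays right of the dotted line under all 3 settings, and Hspb1 lies right of it under TMM alone of these 3.

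Hspa8 (ENSMUSG00000015656.12, chromosome 9, 40800984 to 40810087, plus strand), the constitutive HSP70 that also uncoats clathrin vesicles, was the most abundant of the 10. It stood at 147 TPM in replicate 2 (1879.5 counts) and 256 TPM in replicate 1 (3380.9 counts), 201 ± 77.5 TPM. It ranked 184 among all gene rows in replicate 2 and 119 in replicate 1. Its log2 ratio was -0.36 (95% interval -0.45 to -0.28, exact binomial test with Benjamini-Hochberg adjusted p = 3.36e-17), an interval below 0 at a size under the 2-fold threshold. In edgeR's exact test with an assumed dispersion of 0.01, which allows spread beyond counting error, the adjusted p of Hspa8 was above 0.05. The Hspa8 level was close to that of Hspa5, the HSP70 of the ER, with a TPM ratio of Hspa8 to Hspa5 of 0.968 in replicate 2 and 1.29 in replicate 1. It exceeded Hspa9, the mitochondrial HSP70, 7.54-fold in replicate 2 and 11.9-fold in replicate 1. Hspa8 also hosts the small nucleolar RNA genes Snord14c, Snord14d and Snord14e, which were listed at 0 counts in both libraries. These genes span 86 to 90 bases and the libraries were made from polyadenylated RNA, so 0 counts do not measure their level. Of 11 near-identical copies in the tables, 10 of them pseudogenes, 2 held counts, and together they came to 1.04% of the Hspa8 counts in replicate 2 and 0.27% in replicate 1.

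Hspa1a (ENSMUSG00000091971.3, chromosome 17, 34969190 to 34972156, minus strand) and Hspa1b (ENSMUSG00000090877.3, chromosome 17, 34956436 to 34959238, minus strand) encode the stress-inducible HSP70. Hspa1b had 4.47 TPM in replicate 2 (95% Poisson interval 3.59 to 5.50, from 89.3 counts), against 1.10 TPM in replicate 1 (0.715 to 1.62, from 25.4 counts). Hspa1a had 2.43 TPM in replicate 2 (1.81 to 3.19, from 51.5 counts), against 1.48 TPM in replicate 1 (1.04 to 2.05, from 36.4 counts). The counting intervals of Hspa1b did not overlap between the libraries, and those of Hspa1a did. Hspa1b was called higher in replicate 2, at a log2 ratio of 2.29 (1.66 to 3.02, exact binomial test, adjusted p = 1.11e-13). The call held with library totals (1.76) and with the GC and length trend removed (1.76), but not in edgeR's exact test with an assumed dispersion of 0.1 (adjusted p = 0.26). Hspa1a had a log2 ratio of 0.98 (0.34 to 1.64, exact binomial test, adjusted p = 0.00651), just inside the 2-fold line and so not called, and with the deposited posterior mean count in place of the expected count it was 1.00 and called. It was 0.44 with library totals (exact binomial test, adjusted p = 0.233) and 0.35 with the GC and length trend removed (exact binomial test, adjusted p = 0.47), not called in either.

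The copies share most of their sequence, so the quantifier had to divide reads between them. The posterior standard deviation of the count, the authors' measure of that uncertainty, was 4.64 for each copy in replicate 2, which is 9.01% of the Hspa1a count and 5.20% of the Hspa1b count. In replicate 1 it was 1.32 for Hspa1a (3.63%) and 1.28 for Hspa1b (5.03%). Summing the copies removes the division: the pair held 140.8 counts in replicate 2 and 61.8 counts in replicate 1, a log2 ratio of 1.66 (1.23 to 2.12, exact binomial test, adjusted p = 5.75e-14). Hspa1a took 36.6% of the pair's counts in replicate 2 (exact Clopper-Pearson 95% interval 28.5 to 45.0%) and 58.8% in replicate 1 (45.7 to 71.5%). These intervals do not overlap, by a narrow margin, and they hold counting error without the uncertainty of the division.

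Among the HSP70 genes, Hspa1a and Hspa1b together made up 6.97% of the counts of Hspa1a, Hspa1b and Hspa8 in replicate 2 (5.90 to 8.18%), against 1.80% in replicate 1 (1.38 to 2.30%). This share needs no scaling between libraries, but the GC and length trend was not removed from it. That trend was 0.63 for Hspa1a and 0.53 for Hspa1b, against -0.04 for Hspa8, and its part in the share was not tested. On the TPM scale Hspa8 exceeded the inducible pair 21.2-fold in replicate 2 and 99.3-fold in replicate 1. In both libraries the constitutive gene was far above the inducible pair. Hspa1l, the testis HSP70 gene, starts beside Hspa1a on the other strand with a gap of 546 bases and had 2.23 counts in replicate 2 and 6.18 in replicate 1. Gm20481, annotated across 2225 bases of Hspa1a on the other strand, was at 0 in both. Within 5 kb of Hspa1b, 1110038B12Rik had 19 counts in replicate 2 and 14 in replicate 1, and Gm8696 and Gm25744 had none. Gm25744 is a small nucleolar RNA gene, so its lack of counts does not measure its level.

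**Figure D3:**
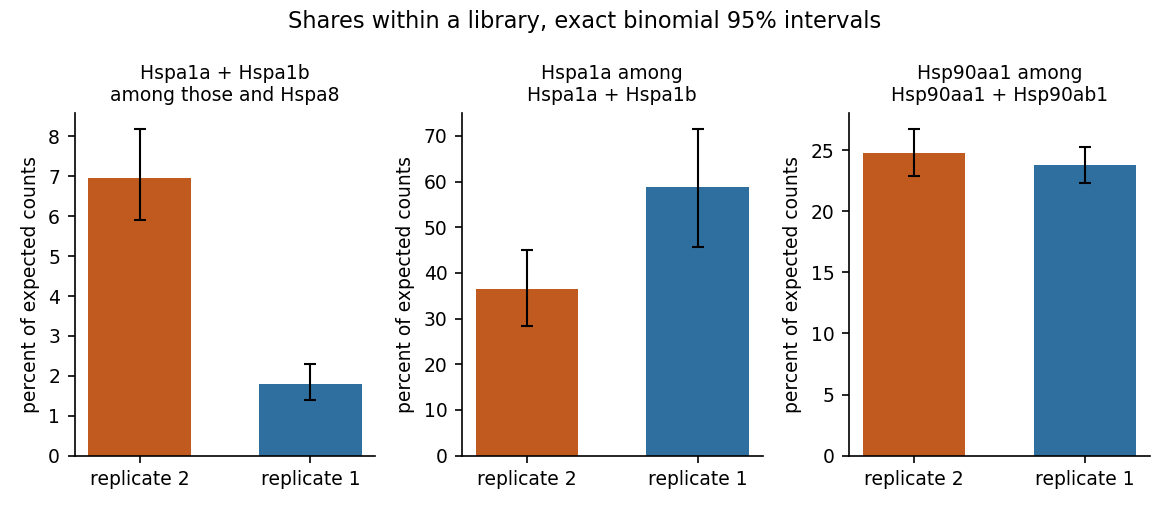
Percent of expected counts, from 0, in replicate 2 (left bar) and replicate 1 (right bar) of each panel, with exact binomial 95% intervals. The inducible share among the HSP70 genes is 6.97% and 1.80%, whereas the Hsp90aa1 share of the HSP90 pair is 24.8% and 23.8%. The GC and length trend was not removed from these shares.

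Hsph1 (ENSMUSG00000029657.11, chromosome 5, 149614287 to 149636376, minus strand) encodes HSP105, an HSP110 protein that exchanges nucleotide on HSP70 and is itself heat-inducible. It had 6.49 TPM in replicate 2 (182 counts) and 10.5 TPM in replicate 1 (296 counts), a mean of 8.48 ± 2.81 TPM. The log2 ratio of its counts was -0.22 (-0.49 to 0.05, exact binomial test, adjusted p = 0.216). Hspa4, the constitutive HSP110, was somewhat higher in each library, at 10.2 TPM in replicate 2 and 14.6 TPM in replicate 1. Hyou1, the ER relative of Hsph1, was at 34.5 and 42.8 TPM, so the Hsph1 level was 0.188 of it in replicate 2 and 0.245 in replicate 1.

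Of the HSP90 genes, Hsp90ab1 (ENSMUSG00000023944.10, chromosome 17, 45567775 to 45573271, minus strand) is the constitutive form. It had 87.7 TPM in replicate 2 (1543 counts) and 125 TPM in replicate 1 (2493 counts), 106 ± 26.3 TPM. Hsp90aa1 (ENSMUSG00000021270.9, chromosome 12, 110690605 to 110702728, minus strand), the heat-inducible form, had 26.9 TPM in replicate 2 (507.7 counts) and 31.3 TPM in replicate 1 (777.4 counts), 29.1 ± 3.11 TPM. The log2 ratio was -0.21 for Hsp90ab1 (-0.30 to -0.12, exact binomial test, adjusted p = 5.46e-05), under the size threshold. For Hsp90aa1 it was -0.13 (-0.29 to 0.03, exact binomial test, adjusted p = 0.214), and 0.17 once the GC and length trend was removed. For neither HSP90 gene was the adjusted p below 0.05 in edgeR's exact test with an assumed dispersion of 0.01. Hsp90ab1 exceeded Hsp90aa1 3.25-fold in TPM in replicate 2 and 3.98-fold in replicate 1.

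Within the HSP90 pair, Hsp90aa1 made up 24.8% of counts in replicate 2 (22.9 to 26.7%) and 23.8% in replicate 1 (22.3 to 25.3%). These intervals overlap, unlike those of the inducible HSP70 share, and the difference between the HSP90 and HSP70 shares was not itself tested. The GC and length trend, -0.30 for Hsp90aa1 and 0.005 for Hsp90ab1, was not removed from the HSP90 share either. With the trend removed the log2 ratios were 0.17 for Hsp90aa1 and -0.21 for Hsp90ab1. On the TPM scale the Hsp90aa1 share was 23.5% in replicate 2 and 20.1% in replicate 1. The ER form Hsp90b1 stood above Hsp90ab1, with a TPM ratio of Hsp90ab1 to Hsp90b1 of 0.780 in replicate 2 and 0.767 in replicate 1, and the mitochondrial form Trap1 stood below it, at 6.68 and 6.85 TPM. Slc35b2, a sugar nucleotide transporter gene on the other strand, had 72 counts in replicate 2 and 61 in replicate 1. Its end, not its start, lies 103 bases from the end of Hsp90ab1. The pseudogene Gm12346, 99.4% identical to Hsp90aa1 over 2208 bases, held 4.34 counts in replicate 2 and 9.57 in replicate 1, under 2% of the Hsp90aa1 counts.

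Of the J proteins, Dnaja1 (ENSMUSG00000028410.9, chromosome 4, 40722150 to 40737149, plus strand), a farnesylated partner of Hspa8, had 19.6 TPM in replicate 2 (332.8 counts) and 26.6 TPM in replicate 1 (411.1 counts). Dnajb1 (ENSMUSG00000005483.9, chromosome 8, 83608193 to 83612653, plus strand), HSP40, a heat-inducible J protein, had 5.28 TPM in replicate 2 (84 counts) and 4.91 TPM in replicate 1 (90 counts). Neither was called. The log2 ratio was 0.18 for Dnaja1 (-0.03 to 0.39, exact binomial test, adjusted p = 0.186) and 0.38 for Dnajb1 (-0.06 to 0.83, exact binomial test, adjusted p = 0.18), and both ratios fall below 0 with library totals. For Dnaja1 the ratio was -0.36 with library totals and 0.49 with the GC and length trend removed, so its sign depends on the setting. Dnajb1 made up 20.2% of the counts of these J protein genes in replicate 2 (16.4 to 24.3%) and 18.0% in replicate 1 (14.7 to 21.6%).

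Dnaja1 had the widest uncertainty of count in replicate 1 among the 10 genes in absolute terms, a posterior standard deviation of 11.9, against 6.12 in replicate 2. The processed pseudogene Gm15542, 99.4% identical to Dnaja1 over 1194 bases, was given 17.2 counts in replicate 2 and 61.6 in replicate 1, with posterior standard deviations of 6.05 and 11.9. With Gm7816 (0 and 2.38 counts) the copies came to 5.18% of the Dnaja1 counts in replicate 2 and 15.6% in replicate 1. Dnaja1 also overlaps Smu1, a splicing gene, by 608 bases on the other strand (87 counts in replicate 2 and 132 in replicate 1), Gm6297 by 249 bases (3 and 13 counts) and Mir207 (0 in both). Mir207 is a microRNA gene, and its lack of counts does not measure its level in these libraries. Neither labels nor headers say whether the counting used strand, so reads of the overlaps may be shared. Tecr, a fatty acid enzyme gene that starts 221 bases from Dnajb1, had 161 counts in replicate 2 and 336 in replicate 1.

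Hspb1 (ENSMUSG00000004951.10, chromosome 5, 135887919 to 135889563, plus strand) encodes a small heat shock protein that holds unfolded proteins and binds the actin cytoskeleton. It had 30.1 TPM in replicate 2 (25.7 to 35.0, from 170 counts), against 16.8 TPM in replicate 1 (13.8 to 20.3, from 109 counts), and these counting intervals do not overlap. Hspb1 was called higher in replicate 2, at a log2 ratio of 1.12 (0.77 to 1.48, exact binomial test, adjusted p = 2.25e-09). The call ended under 4 settings: library totals (0.59), totals without the mitochondrial genome, Gm42418, Gm26917 and Lars2 (0.99), the GC and length trend removed (0.21), and an assumed dispersion of 0.1. The transcript of Hspb1 is 60.7% G and C, the highest of the 10 genes, and the smooth trend over all genes at its GC content and length was 0.91. The same trend was 0.53 for Hspa1b, also called, at 58.1% G and C, and -0.31 for Dnaja1, at 41.5%.

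Of 5 other genes tested in the small heat shock protein list, none was called higher and 2 were called lower in replicate 2, with a list median of -0.58. Hspb6, a muscle small heat shock protein, had 2.45 TPM in replicate 2 and 8.97 TPM in replicate 1, a log2 ratio of -1.45 (exact binomial test, adjusted p = 2.67e-05), and Hspb11, which despite its symbol encodes an intraflagellar transport protein, rested on 3 counts in replicate 2 and 26 in replicate 1. Cryab, alpha B crystallin, had 11.8 TPM in replicate 2 and 21.5 TPM in replicate 1 (log2 ratio -0.58, not called), and Hspb8 5.91 and 5.61 TPM. Hspb1 made up 64.9% of the counts of Hspb1 and Cryab in replicate 2 (58.8 to 70.7%) and 36.2% in replicate 1 (30.8 to 41.9%). Cryab and Hspb6 are abundant in smooth muscle, and the smooth muscle and pericyte markers summed to 133 TPM in replicate 2 and 206 TPM in replicate 1. Hspb7 (log2 ratio 0.57, not called) and Hspb8 (0.35, not called) ran the other way from Cryab and Hspb6, as Hspb1 did. The marker difference lies between libraries of 1 biological sample, and its part in the small heat shock protein values was not tested.

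Hspd1 (ENSMUSG00000025980.10, chromosome 1, 55077835 to 55088243, minus strand), the mitochondrial chaperonin, was among the steadiest of the 10 on the TPM scale, with 14.4 TPM in replicate 2 (247 counts) and 15.4 TPM in replicate 1 (303 counts), 14.9 ± 0.643 TPM. Its log2 ratio was 0.19 (-0.06 to 0.43, exact binomial test, adjusted p = 0.239), -0.35 with library totals and 0.34 with the GC and length trend removed. Its partner Hspe1, whose annotated gene overlaps Hspd1 by 112 bases at the shared promoter, had 20.95 TPM in replicate 2 (98 counts) and 29.02 TPM in replicate 1 (155 counts), so the Hspe1 to Hspd1 ratio was 1.45 in replicate 2 and 1.89 in replicate 1. Hspa9, the matrix HSP70, had 19.5 TPM in replicate 2 and 21.6 TPM in replicate 1, and Dnajc19, of the import motor, had 15.2 and 14.97 TPM. None of the 13 tested genes of the mitochondrial chaperones and proteases was called in either direction, and their median log2 ratio was -0.001, while 1 was called lower with library totals.

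The division of a gene's TPM among its transcripts differed most between libraries for Hspa8, Hsp90aa1, Hsph1 and Dnaja1. Hsp90ab1-201 carried 98.3% of Hsp90ab1 TPM in replicate 2 and 96.0% in replicate 1, Hspb1-201 carried 100% and 97.9%, and Hspd1-201 carried 100% in both. Hspa1a, Hspa1b and Dnajb1 have 1 transcript each in the deposited annotation. Hspa8 was divided among 6 transcripts with counts in both libraries: Hspa8-201 (2394 bases) took 43.7% in replicate 2 and 21.5% in replicate 1, Hspa8-202 (2019 bases) 30.3% and 45.2%, and the noncoding Hspa8-209 (727 bases) 19.1% and 27.5%. The posterior standard deviation of the Hspa8-202 count was 61.3 on 623.6 counts in replicate 2 and 88.2 on 1878.9 counts in replicate 1.

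Hsp90aa1-201 (2852 bases) held 37.5% of Hsp90aa1 TPM in replicate 2 and 64.8% in replicate 1, and the longer Hsp90aa1-202 (3281 bases) held 45.4% and 35.2%. For Hsph1 the 3802-base transcript held 92.6% in replicate 2 and 32.9% in replicate 1. The 3054-base transcript of Hsph1 was at 0 in replicate 2 and held 61.1% in replicate 1, 161.6 counts with a posterior standard deviation of 17.4. For Dnaja1, the 3376-base Dnaja1-201 held 51.7% in replicate 2 and 29.4% in replicate 1, and the 916-base Dnaja1-205 held 17.1% and 34.8%. These divisions enter TPM through the effective length, which for Dnaja1 was 2249 bases in replicate 2 and 1772 in replicate 1 and for Hspa8 was 1702 and 1511, so a TPM ratio of these genes differs from the ratio of their counts. No test of a transcript share was made, as the libraries are 1 sample.

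**Figure D4:**
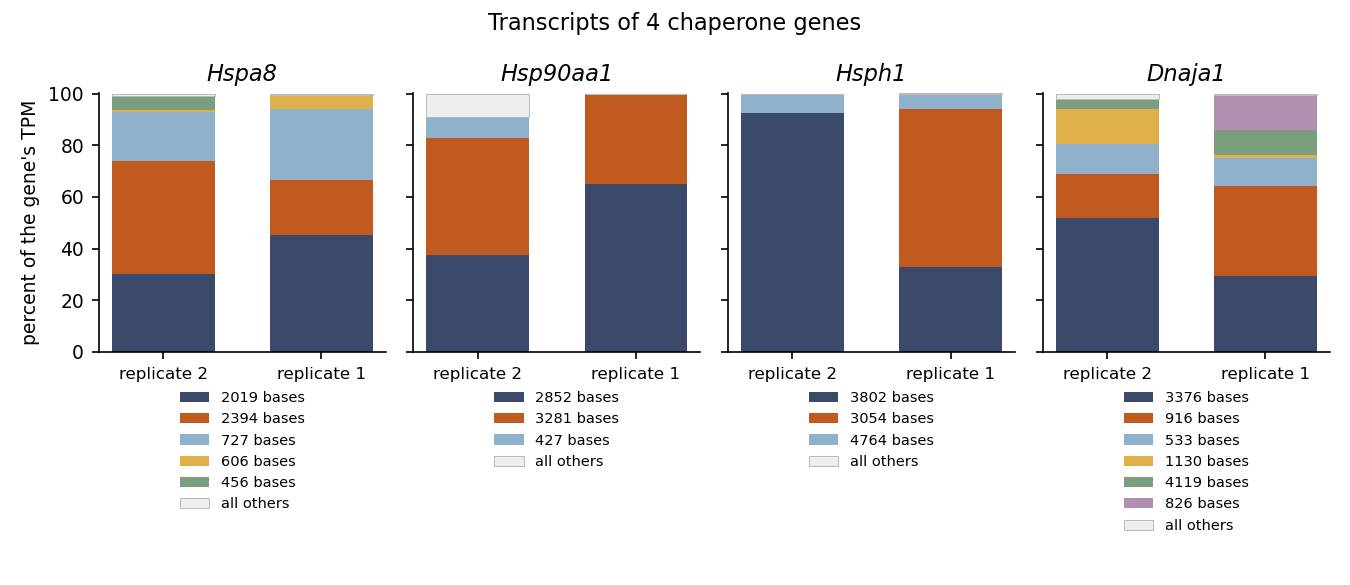
Percent of each gene's TPM by transcript, named by its length in bases, in replicate 2 (left bar) and replicate 1 (right bar). Transcripts under 5% in both libraries are pooled, and the largest shift is in Hsph1, whose 3802-base transcript holds 92.6% in replicate 2 and 32.9% in replicate 1.

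Regulators of the heat shock response were detected. Hsf1, the main heat shock factor, had 7.55 TPM in replicate 2 and 7.28 TPM in replicate 1, and Hsbp1, which binds the HSF1 trimer, had 17.1 and 27.6 TPM. Of 8 tested genes of this list none was called higher and 1 lower, Hsbp1l1, at 2.66 TPM in replicate 2 and 6.84 TPM in replicate 1 (log2 ratio -1.06, exact binomial test, adjusted p = 0.0085), and the median was -0.35. The Hsbp1l1 call ended with the GC and length trend removed (-0.90), where Hsf4 was called lower in its place (-1.20, from 17 counts in replicate 2 and 28 in replicate 1). With library totals 2 genes of the list were called lower. Of 6 other HSP70 and HSP110 genes tested none was called (median -0.15). After Hspa4 the next were Hspa13, a microsomal protein, at 3.49 TPM in replicate 2 and 4.56 TPM in replicate 1, and the endothelial Hspa12b at 3.48 and 2.75 TPM. None of 21 other J protein genes tested was called (median -0.18), and 3 were called lower with library totals. The most abundant was Dnajc7, a cochaperone of HSP70 and HSP90, at 58.7 TPM in replicate 2 and 55.5 TPM in replicate 1, above Dnaja1 in each library. Dnajc8 (13.4 and 35.1 TPM, log2 ratio of counts -0.69) and Dnajb6 (12.3 and 18.7 TPM) followed.

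Among 26 tested cochaperones of HSP90 and HSP70, 2 passed as higher in replicate 2, no gene passed as lower, and the median was 0.04. Hspbp1, a nucleotide exchange factor of HSP70, had 50 counts in replicate 2 and 12 in replicate 1 (log2 ratio 2.50, exact binomial test, adjusted p = 8.16e-09). Unc45a, an HSP90 cochaperone for myosin, had 93 counts in replicate 2 and 53 in replicate 1 (log2 ratio 1.29, exact binomial test, adjusted p = 1.47e-06), and its call ended with library totals (0.75) and with the trend removed (0.69). The Hspbp1 call held under both (1.96 and 1.71). Directions depended on the scaling: with library totals 1 cochaperone was called higher and 4 lower, and with the trend removed 1 higher and none lower. The most abundant were Bag1, an HSP70 exchange factor, at 36.8 TPM in replicate 2 and 47.0 TPM in replicate 1, Bag6, which guides tail-anchored and misfolded proteins, at 22.8 and 42.7 TPM, and the immunophilin Fkbp4 at 18.8 and 23.6 TPM. The Bag6 counts ran the other way from its TPM, with 318 in replicate 2 and 268 in replicate 1 (log2 ratio 0.73, 0.49 to 0.97, not called).

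In the cytosolic chaperonin TRiC and its helper prefoldin, 1 of 14 tested genes was called higher, Pfdn6 (59 counts in replicate 2 and 38 in replicate 1, log2 ratio 1.11), and the median was 0.02. That call ended with library totals (0.57), where none was higher and 2 were lower, and with the trend removed (0.87). Pfdn5 (52.3 and 146 TPM), Tcp1 (22.2 and 27.7 TPM) and Cct5 (26.6 and 19.2 TPM) were the most abundant. The Pfdn5 counts differed less than its TPM, with 290 in replicate 2 and 439 in replicate 1 (log2 ratio -0.12, -0.34 to 0.10, not called). Of the ER counterparts, Hspa5 had 152 TPM in replicate 2 and 198 TPM in replicate 1, Calr, a lectin chaperone, 106 and 221 TPM, and Hsp90b1 112 and 162.65 TPM. Of 12 ER genes tested 1 was called higher, Sdf2l1 (23.9 and 13.9 TPM, log2 ratio 1.06), none lower, and the median was -0.19. The Sdf2l1 call ended with library totals (0.53) and with the trend removed (0.61), and with library totals none was called higher and 2 lower, Dnajb9 (-1.36) and Calr (-1.07).

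Immediate early genes and other genes that respond to handling and stress form the last list. Of 18 tested, replicate 2 had 4 higher calls and no lower call, and the median was 0.22. They were Junb (66 counts in replicate 2 and 4 in replicate 1, log2 ratio 4.37), Ier2 (77 and 16 counts, 2.71), the metallothionein Mt2 (144 and 78.0 TPM, 1.19) and Ier3 (27 and 17 counts, 1.14). The most abundant were Nupr1 (1909 TPM in replicate 2 and 3877 TPM in replicate 1, log2 ratio -0.85), Mt1 (319 and 276 TPM) and Mt2. With library totals, and likewise with the trend removed, 2 of these genes were called higher, Junb and Ier2, and 1 lower, Nupr1 (-1.39 and -1.22). The list median was then -0.32 and -0.13. Hspa1b was called higher in the same library as Junb and Ier2, whose ratios fell to 3.255 and 1.803 with the trend removed. Early genes that were not called went both ways. Fos (0.86) and Jun (0.41) were above 0, and Egr1 (-0.45), Dusp1 (-0.34) and Fosb (-0.37) were below. Both libraries come from 1 biological sample, and whether the differences of Hspa1b, Junb and Ier2 share a cause was not tested.

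**Figure D5:**
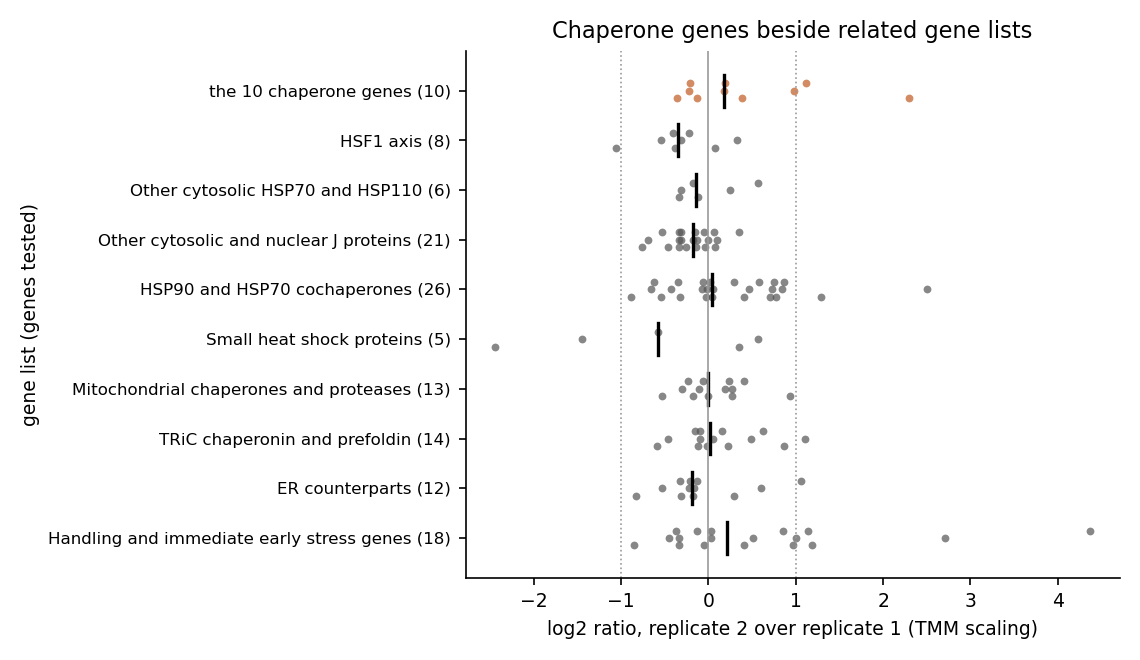
TMM-scaled log2 ratio of replicate 2 over replicate 1 for each tested gene of the 10 chaperone genes (top row) and of 9 related lists, with black bars at the medians and dotted lines at a 2-fold difference. Medians run from -0.58 in the small heat shock proteins to 0.22 in the handling and immediate early genes, beside 0.18 in the 10 genes, and with library totals all 9 list medians are below 0.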

How the data were processed

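Polyadenylated RNA of 1 mouse pancreas was analysed in 2 technical libraries, replicate 2 and replicate 1. The deposited README files name build mm10 and the GENCODE M4 annotation. The sources used here give no aligner, quantifier or strand setting. The authors deposited, per the file headers, expected counts, posterior mean counts with their standard deviation, TPM, FPKM, a posterior mean TPM (treated here as a signal) and, for transcripts, the percent of each isoform. GENCODE M21 on GRCm38 gave symbols and positions, and 42462 of 43346 gene identifiers matched. Spike-in rows and numbered rows, 97 and 26248 per gene table, held no counts and were left out.

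Expected counts were rounded. Single libraries leave edgeR's quasi-likelihood fit without residual degrees of freedom. An exact binomial test, two-sided and conditional on the summed count, was therefore run for genes averaging at least 10 counts, scaled by TMM (edgeR 4.0.16, R 4.3.3), with Benjamini-Hochberg adjustment over all genes tested. Log2 ratios have 0.5 added to both counts. Intervals are exact at 95% and, like the p-values, hold counting error only. A lowess trend (fraction 0.3) on GC content and transcript length was removed in 1 alternative. Alternatives also used DESeq2 1.42.0 size factors. BLAST 2.17.0 searched for near-identical copies, requiring 90% identity and 300 aligned bases. Python 3.11.15, scipy 1.17.1, pandas 2.3.3, biopython 1.88 and matplotlib 3.10.9 were used.

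Named were all 10 genes, the 3 most abundant and up to 4 called genes of each of 9 lists, the marker lists, and annotated genes that overlap a chaperone gene or start within 5 kb. Pseudogenes and ER or mitochondrial relatives beyond this rule were named after their values were seen. The 10 genes and the lists were chosen with earlier results of these data known. Hspa14 of the HSP70 list was not matched and not analysed here.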

Additional observations from a re-analysis of the deposited data

How the results depend on the processing

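Of the 10 chaperone genes 2 were called between the libraries, and 1 was called with library totals, with totals without the mitochondrial genome, Gm42418, Gm26917 and Lars2, or with the GC and length trend removed, and 0 with an assumed dispersion of 0.1. The calls among the 9 related lists numbered 11, against 21 with library totals, 7 with the trend removed, 4 at a mean of 50 or more counts, 1 at a dispersion of 0.1 and 28 at a 1.5-fold threshold. Of the 11, 8 were higher in replicate 2 and 3 lower, against 3 higher and 18 lower with library totals and 3 higher and 4 lower with the trend removed. Over all genes 1533 were called, against 2945, 966, 649, 45 and 3262 under those settings in the same order. With library totals the log2 ratios of Dnaja1 (-0.36), Dnajb1 (-0.15) and Hspd1 (-0.35) changed sign, and so did that of Hsp90aa1 with the trend removed (0.17). None of these 4 is a call. The summed Hspa1a and Hspa1b counts kept direction and call under all 6 alternatives run for them. Their log2 ratio fell to 1.13 with library totals and 1.08 with the trend removed, both near the 2-fold line. The assumed dispersion of 0.1, which ended the Hspa1b call, was not run for the sum. The share of Hspa1a and Hspa1b among the HSP70 genes averaged 4.38%, and 1.80 to 6.97% with 1 library left out. TPM rescaled without mitochondrial genes, Gm42418, Gm26917 and Lars2, an alternative added after seeing the data, raised every level, for Hspa8 to 328 TPM by mean. The cause of these shifts was not tested. Counts of 25.4 to 89.3 limit Hspa1a and Hspa1b. No paired analysis was possible because there is 1 group.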
